A study of Rattus norvegicus with 42 samples.

Results

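Light without any injection was compared with no treatment in adult rat retina, across all measured genes. The comparison took every library labelled light damage (7) and every library labelled control (5), 12 of the 31 libraries of the series that had counts. Control rats were untreated. Light damage rats spent 24 h under 15000 lux and were not injected. For comparison, 2 further pairs of groups received vehicle or 1 mM nanoceria (cerium oxide nanoparticles) in the vitreous, each without light (5 and 4 libraries) or with the same light (5 and 5 libraries). Strain, sex, age in weeks and the time between light and dissection are not given in the labels, which call the libraries biological replicates. PolyA RNA was read as paired 150 bp reads and counted per gene.

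Strong or long exposure to bright light injures and kills photoreceptors, rods above all. Müller glia span the retina, take up glutamate and become reactive after injury. Microglia, the resident phagocytes, and blood-borne leukocytes respond to dying cells, while cytokines of the interleukin-6 family signal through JAK kinases and STAT3 in glia and neurons. Because whole retina was measured, fewer cells of a type and less RNA per cell cannot be told apart in any value given here.

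Total counts lay between 74306775 and 120222710 in the control and between 25158407 and 149429413 in the light damage libraries. Light damage 1 was the shallowest library, and 11.7% of its counts came from a single transcript, AABR07000398.1, at 144262 CPM (counts per 1000000 counts of the library) against 1498 to 3527 CPM in the other light damage libraries and 1274 to 2134 CPM in control. Light damage 4 and 7 were near-identical libraries: their counts differed with a chi-square of 10.98 per degree of freedom, against 117 or more for every other pair of libraries in these groups, so results were also computed with the pair summed to 1 library. Transcripts of the Y chromosome were high in 4 of 5 control and 4 of 7 light damage libraries. Lens transcripts took 0.0687% to 0.891% of the counts in control and 0.0284% to 0.858% in light damage libraries, so traces of other eye tissue were present in both groups.

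Of 18094 genes tested, 2147 (11.9%) were higher and 1927 (10.6%) lower after light at an adjusted p under 0.05 (edgeR quasi-likelihood test, Benjamini-Hochberg adjustment over all genes), together 22.5%. At least 2-fold changes were made by 635 (3.51%) of the genes upward and 229 (1.27%) downward, at least 4-fold changes by 219 and 41, and at least 16-fold changes by 45 and 4. In 1171 genes (6.47%) all 7 light damage libraries lay above all 5 control libraries, and in 866 (4.79%) all lay below. The median log2 fold change of all genes was -0.011. With light damage 4 and 7 summed, 1942 genes were higher (10.7%) and 1670 lower (9.24%), and with light damage 1 left out as well, 1980 were higher and 1471 lower. Among the called genes named below, Gnat2 lost its call with the pair summed. Scaling by library size alone, without trimmed-mean normalisation, gave 2371 higher and 1100 lower genes, which moved the share of higher calls from 52.7% to 68.3%. Log2 fold changes below are light damage minus control with their standard error, levels are CPM, and a gene is said to have risen or fallen only where it passed the adjusted p. Counts of list members that rose or fell are to be read against 11.9% and 10.6% of all genes.

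**Figure D1:**
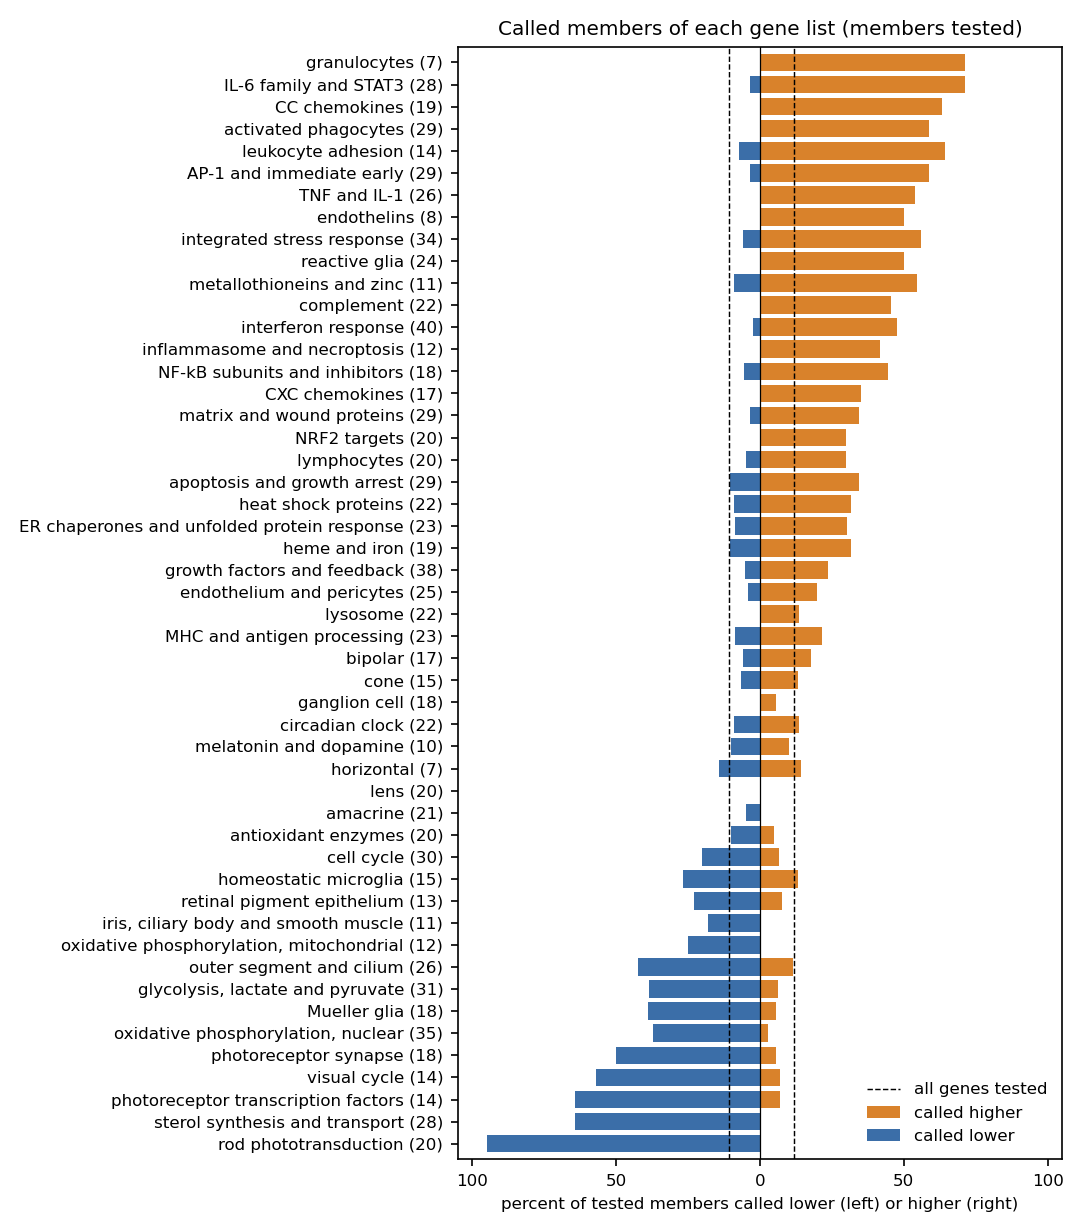
For each gene list with at least 7 tested members, bars give the percent of tested members called lower (left, blue) or higher (right, orange) in 7 light damage against 5 control libraries; dashed lines mark the percent of all genes called (10.6% lower, 11.9% higher). The rod phototransduction list has the longest bar to the left, with 19 of 20 members. To the right the longest bars are those of the interleukin-6 family and STAT3 (20 of 28) and of granulocytes (5 of 7). The granulocyte bar rests on genes near the floor, which can pass the filter on low counts through the libraries where they are higher. Its length is therefore no measure of the response. The same limit holds for chemokine members that were nearly silent in control.

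Transcripts of the rod phototransduction cascade fell nearly throughout. In it light leads to the activation of transducin, transducin activates a phosphodiesterase, and the fall in cyclic GMP closes the cation channel of the outer segment. Of 20 tested members 19 fell, against 10.6% of all genes, and 0 rose, with a median log2 change of -1.12, and in 11 all light damage libraries lay below all control libraries (4.79% of all genes). Short stretches before the annotated start of 3 photoreceptor genes that fell are shown because they hold TAATCC, the letters that CRX, the homeobox factor of photoreceptors, is known to bind; they were chosen for these letters after the values were seen. TAATCC was searched on both strands and is in capitals (GGATTA where it lies on the other strand). It occurred in 6.33% of the 27457 promoters of the RefSeq table (build GRCr8), and none of the matches shown overlapped another searched motif. Only the 250 bases before each start were searched, here and for the motifs below. Cngb1, the beta subunit of the rod channel, lies at chr19:9732526-9732645 (plus strand), Rbp3, which carries retinoids between photoreceptors and pigment epithelium, at chr16:9273637-9273756 (plus strand), and Cabp4, a calcium sensor of the photoreceptor synapse, at chr1:210862653-210862772 (minus strand).
Cngb1: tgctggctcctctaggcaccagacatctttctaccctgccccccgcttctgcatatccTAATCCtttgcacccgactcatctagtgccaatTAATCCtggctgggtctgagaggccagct
Rbp3: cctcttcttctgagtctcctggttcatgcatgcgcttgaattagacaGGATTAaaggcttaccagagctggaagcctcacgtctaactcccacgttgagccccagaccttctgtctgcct
Cabp4: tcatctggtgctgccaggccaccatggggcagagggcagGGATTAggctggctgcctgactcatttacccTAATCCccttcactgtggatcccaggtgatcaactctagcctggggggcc

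Gnat1, the alpha subunit of rod transducin, measured 15689, 9022, 11597, 10951 and 7544 CPM in control replicates 1, 2, 4, 5 and 6, the order used for all control values below, and 689 to 2363 CPM (median 1038) in the light damage libraries. Every light damage library stood far below every control library. Rcvrn, recoverin, a calcium sensor of photoreceptors, changed by -2.38 ± 0.32 (adjusted p = 2.38e-06). The beta subunit of transducin, Gnb1, changed by -1.92 ± 0.25, and its gamma subunit Gngt1 by -1.30 ± 0.33. Pdc, phosducin, which binds the beta and gamma subunits, changed by -1.73 ± 0.32.

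Effectors, channel and shut-off proteins fell as well. Slc24a1, the rod exchanger of sodium, calcium and potassium, changed by -1.72 ± 0.26 and Cngb1 by -1.63 ± 0.26, but the other channel subunit Cnga1 by -0.86 ± 0.23. The catalytic phosphodiesterase subunit Pde6a changed by -0.58 ± 0.15, the inhibitory subunit Pde6g by -1.13 ± 0.28, and Grk1, a kinase of the shut-off, by -1.12 ± 0.26. Rgs9, which speeds the shut-off of transducin, changed by -0.65 ± 0.19. Pde6b, the second catalytic subunit, changed by -0.82 ± 0.25, which no longer passed without control 1 (adjusted p = 0.0755). No test compared these members with each other.

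Sag, the rod arrestin, which ends the light signal, was the member that did not pass. It measured 3985, 2916, 3088, 3949.6 and 2186 CPM in control and 2258 to 4288 CPM (median 2838) after light (-0.092 ± 0.23, adjusted p = 0.8285). The 2 groups lay over the same range.

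**Figure D2:**
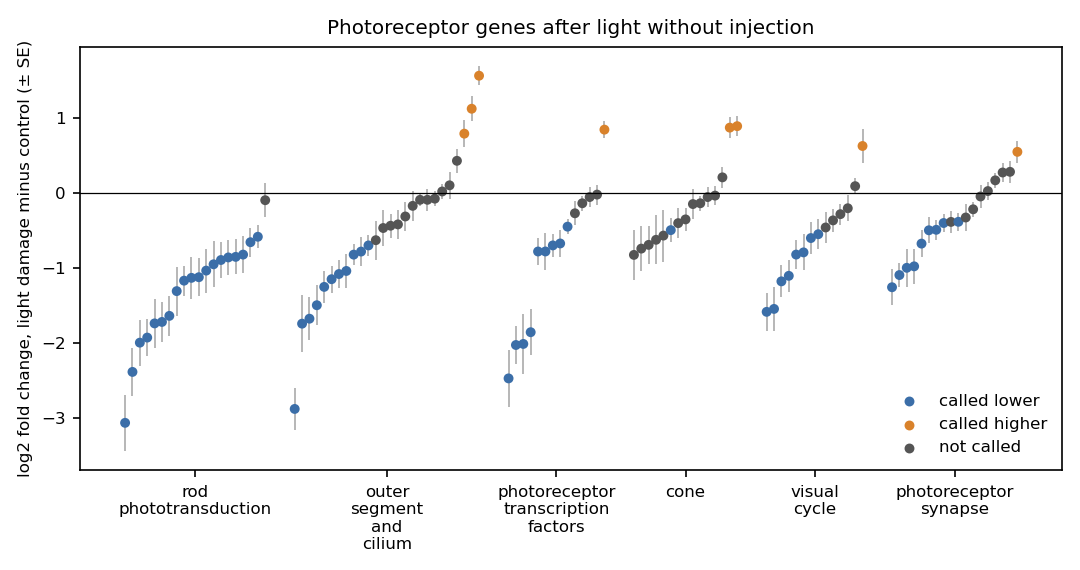
Log2 fold change of light damage minus control for every tested member of 6 photoreceptor gene lists, with bars of 1 SE; blue members were called lower, orange higher and grey not called. In the rod list all members lie below 0 and all but Sag are called, while the cone list holds members on both sides of 0.

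Genes of the outer segment and its connecting cilium fell in part. Of 26 tested members 11 fell, against 10.6% of all genes (median -0.45). The 3 that rose are a share close to the 11.9% of all genes that were higher. Reep6, a membrane protein that rods need for vesicle traffic, measured 1404, 942, 1144, 995 and 800.5 CPM in control and 82.3 to 235 CPM (median 124) after light, without overlap. Rom1, a rim protein of the outer segment discs, changed by -1.67 ± 0.28 and Aipl1, the chaperone of rod phosphodiesterase, by -1.49 ± 0.27. Unc119, a carrier of lipid-modified transducin, changed by -1.25 ± 0.22, Tulp1, which moves proteins into the outer segment, by -1.08 ± 0.19, and Abca4, the flippase that clears retinaldehyde from discs, by -1.15 ± 0.18. The 3 members that rose were Nphp4, a protein of the ciliary transition zone (1.57 ± 0.13), Mak, a kinase that limits cilium length (1.13 ± 0.17), and Impg2, a proteoglycan of the matrix around photoreceptors (0.79 ± 0.18). Nphp4 measured 39.4, 31.97, 31.7, 29.3 and 28.8 CPM in control and 66.3 to 108 CPM (median 104) after light. All light damage libraries lay above all control libraries in these 3 genes.

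Of 14 transcription factors of photoreceptors 9 fell and 1 rose, against 10.6% and 11.9% of all genes. Nr2e3, a nuclear receptor that represses cone genes in rods, measured 192, 186, 172, 204 and 157 CPM in control and 31.9 to 62.4 CPM (median 43.2) after light (-2.02 ± 0.26, adjusted p = 1.49e-06). Nrl, the leucine zipper factor that sets rod fate, changed by -1.85 ± 0.30, and neither gene overlapped between groups. Samd7, a repressor of nonrod genes, changed by -2.01 ± 0.41, Crx by -0.78 ± 0.18 and Otx2, a homeobox factor upstream of Crx, by -0.70 ± 0.15. Neurod1, a basic helix-loop-helix factor that photoreceptors need to survive, rose: it measured 132, 145, 122, 161 and 109 CPM in control and 205 to 269 CPM (median 235) after light (0.85 ± 0.11, adjusted p = 1.5e-06), and all light damage libraries lay above control.

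Cone genes were called in shares close to those of all genes. Of 15 tested members 2 rose and 1 fell, against 11.9% and 10.6% of all genes, with a median log2 change of -0.35. With the same light after vehicle 8 members were lower and 2 higher, and after nanoceria 4 and 1. Pde6c, the cone phosphodiesterase, measured 16.8, 15.3, 13.6, 17.7 and 12.3 CPM in control and 23.1 to 36.2 CPM (median 28.6) after light (0.89 ± 0.13, adjusted p = 9.8e-06), and Gnb3, the beta subunit of cone transducin, changed by 0.88 ± 0.14. In both genes every light damage library lay above every control library. Gnat2, the alpha subunit of cone transducin, changed by -0.49 ± 0.16 (adjusted p = 0.0251) and no longer passed without control 1 or 5 or light damage 3, 4 or 7 (adjusted p between 0.0516 and 0.11) and with the near-identical pair summed (0.0522) or scaling by library size alone (0.0599). With the 12 libraries fitted alone 5 cone members fell, and with limma-voom 6 did. The cone opsin Opn1mw stood at 19.3 to 36.8 CPM in control and 14.4 to 24.03 CPM (median 18.9) after light (adjusted p = 0.192), and cone arrestin, Arr3, changed by -0.74 ± 0.30 without passing (adjusted p = 0.0785).

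In the visual cycle, which returns bleached chromophore to its light-sensitive form, 8 of 14 tested genes fell and 1 rose, which no longer passed without any single library among control 2, 4, 5 and 6 and light damage 1, 2, 3, 5 and 6. Rpe65, the isomerase of the pigment epithelium, measured 785, 375, 489, 719 and 376 CPM in control and 122 to 334 CPM (median 137) after light, and the groups did not overlap. Rbp3 changed by -1.58 ± 0.25, Rlbp1, a retinaldehyde carrier of Müller glia and pigment epithelium, by -1.17 ± 0.21, and Rdh12, a photoreceptor retinol dehydrogenase, by -1.10 ± 0.21. At the photoreceptor synapse 9 of 18 genes fell and 1 rose. Slc17a7, the vesicular glutamate transporter, changed by -1.09 ± 0.16, Cabp4 by -1.25 ± 0.24, Cplx4, a complexin of ribbon synapses, by -0.97 ± 0.23, and Lrit3, which assembles the postsynaptic signalling complex of ON bipolar cells, by -0.99 ± 0.25. Elfn1, the adhesion protein that connects rods to ON bipolar cells, rose (0.55 ± 0.15). Drd4, the dopamine receptor of photoreceptors, fell (-1.13 ± 0.25).

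Among genes of inner retinal neurons, those of amacrine and ganglion cells were seldom called. Shares called among bipolar and horizontal cell genes were not below the 22.5% of all genes called in either direction. Of 17 bipolar genes 3 rose and 1 fell, of 7 horizontal cell genes 1 fell and 1 rose (none without control 1 or 5 or light damage 4, 5, 6 or 7), of 21 amacrine genes 1 fell, and of 18 ganglion cell genes 1 rose. These counts are to be read against 11.9% higher and 10.6% lower of all genes. The bipolar members that rose included Nyx, nyctalopin, which anchors the channel of ON bipolar cells (0.64 ± 0.15), and Grik1, a kainate receptor of OFF bipolar cells (0.60 ± 0.15), and the member that fell was Vsx1, a homeobox factor of cone bipolar cells (-0.70 ± 0.17). Lhx1, a factor of horizontal cells, fell (-0.74 ± 0.17), as did Penk, the enkephalin precursor of amacrine cells (-0.68 ± 0.14). Gap43, a growth cone protein of ganglion cells and their axons, measured 34.97, 26.3, 29.5, 23.7 and 18.6 CPM in control and 39.3 to 68.8 CPM (median 46.9) after light (0.88 ± 0.23, adjusted p = 0.00644), and the groups did not overlap. Gad1, the enzyme that makes GABA, changed by -0.063 ± 0.16, Chat, which makes acetylcholine, by 0.39 ± 0.18, and Rbpms, a ganglion cell marker, by 0.15 ± 0.18; none of the 3 passed (adjusted p = 0.831, 0.14 and 0.622).

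Part of the genes of the resting work of Müller glia fell, and part of those of the reactive state rose. Of 18 Müller glia genes 7 fell and 1 rose, against 10.6% and 11.9% of all genes (median -0.24). Glul, glutamine synthetase, which disposes of glutamate, measured 3423, 2732, 2950.1, 2409 and 2120.5 CPM in control and 1283 to 1639.5 CPM (median 1401) after light, without overlap. Kcnj10, the inward potassium channel that buffers potassium, changed by -1.09 ± 0.22, Car14, a carbonic anhydrase, by -1.07 ± 0.17, and Gpr37, an orphan receptor of glia, by -1.28 ± 0.20. Clu, clusterin, a secreted chaperone, was the member that rose (0.77 ± 0.18). Of 24 genes of reactive glia 12 rose, against 11.9% of all genes, and 0 fell (median 0.96). In these 12 all light damage libraries lay above all control libraries, against 6.47% of all genes. Gfap, the intermediate filament of reactive glia, measured 87.3, 12.3, 48.5, 17.8 and 109.9 CPM in control and 119.8 to 341 CPM (median 213) after light; control replicates 1 and 6 came close to the lowest light damage library. Lcn2, lipocalin, an iron-binding protein secreted in injury, measured 45.1, 13.7, 25.5, 16.5 and 34.5 CPM in control and 141 to 494 CPM (median 349.5) after light (3.60 ± 0.69, adjusted p = 0.000284). Osmr, the receptor of oncostatin M, changed by 2.93 ± 0.25, Cebpd, an acute-phase transcription factor, by 2.68 ± 0.24, Steap4, a metalloreductase, by 2.39 ± 0.31, and Nes, nestin, an intermediate filament of progenitor-like glia, by 1.96 ± 0.26. Cp, ceruloplasmin, an iron oxidase, changed by 1.89 ± 0.18, Cd44, a hyaluronan receptor, by 1.18 ± 0.17, and A2m, a protease inhibitor, by 1.12 ± 0.19. Vim, vimentin, stood at 372 to 629.6 CPM in control and 533 to 755 CPM (median 628) after light and did not pass (0.37 ± 0.17, adjusted p = 0.124).

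**Figure D3:**
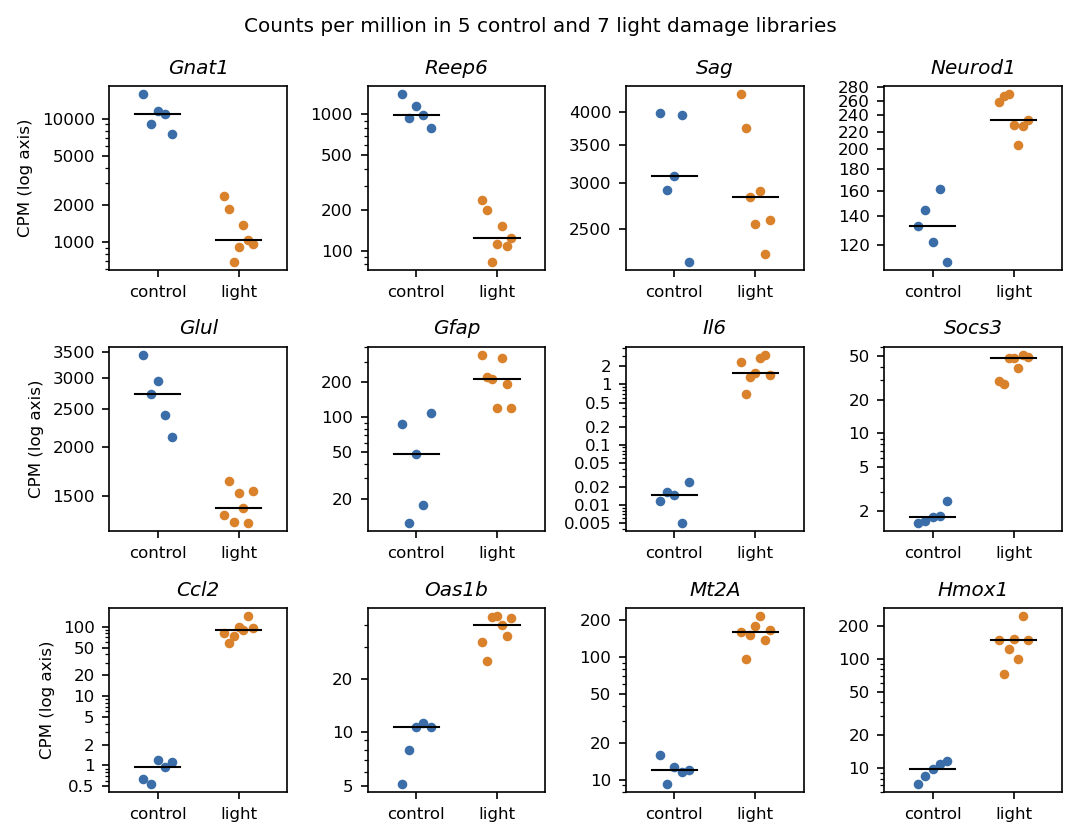
CPM (log axes) of 12 genes in each of 5 control (blue) and 7 light damage (orange) libraries; black lines are group medians, and a library at 0, control 5 for Il6, is drawn at the foot of its panel. Except for Sag, the 2 groups of points do not overlap in any panel.

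Most genes of the interleukin-6 family, its receptors, the JAK kinases, STAT3 and its feedback inhibitors rose, though not every receptor did. Of 28 tested members 20 rose, against 11.9% of all genes, 1 fell and 7 did not pass, with a median of 1.04. In 17 all light damage libraries lay above all control libraries, against 6.47% of all genes. Promoter stretches of 2 genes that rose, Cish and Icam1, are shown because they hold TTCNNNGAA, the palindrome that STAT factors are known to bind (N is any base); both were chosen for these letters after the values were seen. The motif, in capitals, was searched on both strands, which for a palindrome give the same matches, and occurred in 7.52% of the 27457 RefSeq promoters. Cish, a STAT-induced inhibitor of cytokine receptors, lies at chr8:116850719-116850868 (plus strand, 4 matches), and Icam1, an adhesion molecule for leukocytes, at chr8:27829695-27829784 (plus strand, 1 match).
Cish: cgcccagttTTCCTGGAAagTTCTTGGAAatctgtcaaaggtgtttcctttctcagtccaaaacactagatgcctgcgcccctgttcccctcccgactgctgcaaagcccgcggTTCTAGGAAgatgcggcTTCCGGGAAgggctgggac
Icam1: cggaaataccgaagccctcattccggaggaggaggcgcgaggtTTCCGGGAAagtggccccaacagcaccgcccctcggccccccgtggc

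Among the ligands, Il6 measured 0.0115, 0.0166, 0.0144, 0 and 0.0238 CPM in control and 0.682 to 3.04 CPM (median 1.57) after light (7.07 ± 0.89, adjusted p = 1.17e-06), so that in control it was at the limit of detection. Clcf1, a ligand of the ciliary neurotrophic factor receptor, measured 2.15, 2.72, 3.06, 2.29 and 4.36 CPM in control and 18.2 to 45.7 CPM (median 33.4) after light (3.39 ± 0.40). Lif, a survival factor for photoreceptors, measured 0.9305, 1.67, 1.58, 1.89 and 3.41 CPM in control and 24.2 to 92.04 CPM (median 45.5) after light. None of these ligands overlapped between groups. Osm, oncostatin M, changed by 2.58 ± 0.29, and Il11, a further ligand of the family, by 3.05 ± 0.50.

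Of the signalling proteins, the shared receptor chain Il6st changed by 1.07 ± 0.083, and the kinases Jak1, Jak2 and Jak3 by 0.30 ± 0.062, 0.80 ± 0.11 and 2.58 ± 0.18. Stat3 itself measured 115, 165, 172, 163 and 209 CPM in control and 548 to 631 CPM (median 602) after light. The feedback inhibitor Socs3 measured 1.56, 1.63, 1.78, 1.79 and 2.47 CPM in control and 27.6 to 50.4 CPM (median 47.5) after light, and every light damage library stood far above every control library. Cish changed by 2.91 ± 0.27 (adjusted p = 7.06e-09), and the related inhibitors Socs2 and Socs1 by 1.28 ± 0.14 and 1.04 ± 0.17. Bcl3, a nuclear partner of NF-kB that STAT3 also induces, changed by 1.70 ± 0.30. Pias3, an inhibitor of STAT3, was the member that fell (-0.43 ± 0.075, adjusted p = 9.85e-05).

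Chemokines that draw monocytes were nearly silent in control and rose many-fold. Of 20 listed CC chemokines and receptors 19 passed the filter on low counts and 12 rose, while of 17 tested CXC members 6 rose (10 with limma-voom). Of all genes 11.9% rose. A member nearly silent in control can pass the filter through the libraries where it is higher, so the share that rose is no measure of these lists. Ccl2, the main monocyte attractant, measured 0.643, 0.541, 1.21, 0.9403 and 1.13 CPM in control and 57.4 to 140.4 CPM (median 90.3) after light. Ccl3 measured 0.0689, 0.125, 0.259, 0.152 and 0.2502 CPM in control and 6.44 to 14.5 CPM (median 8.81) after light, and Cxcl10, an interferon-induced attractant of T cells, 0.758, 1.21, 1.15, 1.38 and 4.74 and 26.1 to 109 CPM (median 69.3). In all 3 genes the groups lay apart; control 6 held the highest control level of Cxcl10, and without it the log2 change was 5.99. Ccl12 changed by 4.42 ± 0.62, Ccl4 by 4.20 ± 0.37, Ccl20, an attractant of CCR6-bearing cells, by 2.51 ± 0.52, and the neutrophil attractant Cxcl1 by 2.51 ± 0.53. The receptor Ccr2 changed by 2.65 ± 0.53, and its groups overlapped.

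Adhesion molecules that let leukocytes leave the blood rose in 9 of 14 tested genes, against 11.9% of all genes. Icam1 measured 10.6, 9.098, 12.6, 11.1 and 14.97 CPM in control and 65.8 to 93.1 CPM (median 77.6) after light, without overlap. The endothelial selectin Sele changed by 3.42 ± 0.37, P-selectin, Selp, by 2.89 ± 0.37, Vcam1 by 0.99 ± 0.21, and Itgb2, the shared chain of leukocyte integrins, by 1.71 ± 0.28. Jam2, a junction protein of vessels, fell (-0.40 ± 0.088).

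Of 29 genes of activated phagocytes 17 rose and 0 fell (median 0.77), while genes of resting microglia went both ways, with 2 up and 4 down of 15. Of all genes 11.9% rose and 10.6% fell. Cd163, a haemoglobin scavenger receptor of macrophages, measured 3.88, 7.88, 5.204, 9.45 and 8.52 CPM in control and 15.3 to 56.9 CPM (median 37.6) after light (2.48 ± 0.34, adjusted p = 3.13e-06). Fcgr2b, the inhibitory Fc receptor, changed by 2.89 ± 0.35, Cst7, a cystatin of activated microglia, by 2.57 ± 0.44, Ch25h, which makes an immune oxysterol, by 2.46 ± 0.22, and Spp1, osteopontin, by 2.32 ± 0.22. P2ry12, the purinergic receptor of resting microglia, measured 2.72, 2.902, 3.64, 2.34 and 2.597 CPM in control and 1.05 to 1.57 CPM (median 1.397) after light (-1.02 ± 0.23, adjusted p = 0.00122), with all light damage libraries below control. Tmem119, a marker of resident microglia, changed by -0.82 ± 0.19. Siglech, also a marker of microglia, rose and had the largest change among the 15 genes of resting microglia (3.42). Ptprc, the shared leukocyte antigen CD45, changed by 1.37 ± 0.24, whereas Aif1, a marker of all microglia and macrophages, did not pass (0.36 ± 0.19, adjusted p = 0.178).

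Granulocyte and lymphocyte genes stood near the floor in both groups. Of 10 listed granulocyte genes 7 passed the filter and 5 rose, none without overlap. The filter used the libraries of all groups, so a gene near the floor in control can pass through the libraries where it is higher. The share that rose is therefore no measure of the list. Csf3r, the receptor of granulocyte colony-stimulating factor, stood at 0.586 to 0.877 CPM in control and 0.845 to 4.699 CPM (median 3.29) after light (2.23 ± 0.42, adjusted p = 0.000264). Camp, a cathelicidin of granules, stood at 0 to 0.0575 CPM in control and 0.0489 to 0.402 CPM (median 0.126) after light; its log2 change of 3.41 ± 0.63 became 4.37 without control 4. Of 20 lymphocyte genes 6 rose and 1 fell, and 3 rose without control 2, light damage 5 or light damage 6.

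Complement genes rose in 10 of 22 cases, against 11.9% of all genes. C4b, of the classical pathway, changed by 1.63 ± 0.46, the proteases C1s and C1r by 1.11 ± 0.21 and 0.88 ± 0.18, their inhibitor Serping1 by 1.02 ± 0.19, and the receptor C5ar1 by 1.31 ± 0.25. C1qa, which starts the classical pathway, did not pass (0.23 ± 0.21, adjusted p = 0.487). C3, the central component, stood at 14.2 to 34.4 CPM in control and 27.7 to 178 CPM (median 36.05) after light; its call (adjusted p = 0.0254) ended without control 1, 2 or 5 or light damage 3 (up to 0.116), with limma-voom (0.0804) and with the 12 libraries alone (0.0548).

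Interferon-induced genes rose in 19 of 40 tested members (29 with limma-voom) and fell in 1 (none without control 4, 5 or 6 or light damage 1, 2, 3, 6 or 7), with a median of 0.66. Relative to the control mean, the mean log2 CPM of the members was 0.22, 0.17 and 0.45 in light damage 1, 2 and 6. These values lay within the control range of -0.71 to 0.46. The other light damage libraries lay between 0.87 and 1.13. Promoter stretches of 3 that rose are shown because they hold GAAA, then 2 bases of any kind, then GAAA again, the repeat found in interferon-stimulated response elements, which the interferon-activated complex that holds IRF9 is known to bind; they were chosen for these letters after the values were seen. The motif, or its reverse complement, is in capitals, was searched on both strands and occurred in 3.29% of the RefSeq promoters. Oas1b, an antiviral oligoadenylate synthetase, lies at chr12:41395853-41395962, Rsad2, viperin, at chr6:48788201-48788310, and Ifi44 at chr2:243303841-243303920, all on the minus strand.
Oas1b: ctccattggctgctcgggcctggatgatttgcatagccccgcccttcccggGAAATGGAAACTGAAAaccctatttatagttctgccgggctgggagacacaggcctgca
Rsad2: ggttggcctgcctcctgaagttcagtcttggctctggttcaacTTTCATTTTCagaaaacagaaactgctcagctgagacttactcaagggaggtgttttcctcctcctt
Ifi44: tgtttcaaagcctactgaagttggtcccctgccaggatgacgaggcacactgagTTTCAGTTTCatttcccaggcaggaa

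Oas1b measured 5.12, 7.92, 10.7, 11.3 and 10.7 CPM in control and 25.2 to 44.9 CPM (median 39.9) after light, and Rsad2 21.3, 22.1, 43.9, 35.7 and 63.6 and 89.1 to 277 CPM (median 204). Neither gene overlapped between groups; control 6 held the highest control level of Rsad2. Rsad2 changed by 2.28 ± 0.37, Mx2, a GTPase that restricts viruses, by 1.80 ± 0.28, Usp18, which removes ISG15 and limits interferon signalling, by 1.70 ± 0.27 and Ifi44 by 1.07 ± 0.14. Irf9, the DNA-binding part of the interferon complex, measured 14.6, 15.7, 19.5, 20.2 and 22.6 CPM in control and 44.9 to 69.99 CPM (median 61.9) after light. Isg15 did not pass (0.73 ± 0.29, adjusted p = 0.0685). In antigen presentation 5 of 23 genes rose (3 without control 1, control 2 or light damage 5) and 2 fell (1 without control 4 or 6). Tap1, the peptide transporter, changed by 0.99 ± 0.21 and Nlrc5, the activator of class I genes, by 1.19 ± 0.25, while Ciita, the activator of class II genes, fell (-0.97 ± 0.17).

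Immediate early genes and AP-1 subunits, which cells switch on within a short time of a stimulus, rose in 17 of 29 cases and fell in 1 (none without control 1, 2, 4 or 6 or light damage 1, 2, 4 or 5), with a median of 0.75. Promoter stretches of 2 genes that rose, chosen after the values were seen, hold TGANTCA, the letters that AP-1 is known to bind. The motif is in capitals, was searched on both strands and occurred in 6.36% of the RefSeq promoters. Ccl7, a monocyte attractant, lies at chr10:67513975-67514074 (plus strand), and Il11 at chr1:78098432-78098531 (plus strand).
Ccl7: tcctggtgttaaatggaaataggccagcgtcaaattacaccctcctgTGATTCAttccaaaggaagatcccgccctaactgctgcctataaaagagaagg
Il11: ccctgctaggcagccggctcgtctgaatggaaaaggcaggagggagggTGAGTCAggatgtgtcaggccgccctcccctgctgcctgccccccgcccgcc

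Fosl1, an AP-1 subunit, measured 2.33, 2.03, 1.98, 1.73 and 2.704 CPM in control and 44.2 to 94.998 CPM (median 59.1) after light, and Fos 42.3, 12.7, 24.5, 12.7 and 18.3 and 90.1 to 149 CPM (median 119). Both lay apart in the 2 groups. Fos changed by 2.42 ± 0.39, Junb by 1.93 ± 0.24, Jun by 1.44 ± 0.21 and Fosb by 1.16 ± 0.30. Egr1 and Egr2, zinc-finger factors of early activation, changed by 2.16 ± 0.42 and 3.04 ± 0.49, Myc by 1.38 ± 0.30, Npas4, a factor of neuronal activity, by 2.24 ± 0.30, and Ier3 by 1.82 ± 0.17. Ccl7 measured 0.459, 0.349, 0.503, 0.403 and 0.536 CPM in control and 11.7 to 36.9 CPM (median 28.2) after light, and Il11 0.368, 0.225, 0.345, 0.296 and 0.298 and 1.13 to 5.55 CPM (median 2.28); again no library of one group reached the other.

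Among NF-kB subunits and inhibitors 8 of 18 rose and 1 fell, against 11.9% and 10.6% of all genes. Relb changed by 1.82 ± 0.18, Nfkb1 by 0.72 ± 0.11, Rela by 0.52 ± 0.088, and the inhibitors Nfkbie and Nfkbia by 1.16 ± 0.16 and 0.56 ± 0.13. Tnfaip3, the A20 protein that ends NF-kB signalling, fell: it measured 82.5, 69.8, 63.2, 71.5 and 68.02 CPM in control and 39.1 to 51.2 CPM (median 46.9) after light (-0.66 ± 0.13, adjusted p = 0.000543), without overlap. In the tumour necrosis factor and interleukin-1 systems 14 of 26 genes rose. Il1b measured 0.609, 0.599, 0.604, 0.851 and 0.751 CPM in control and 2.72 to 7.23 CPM (median 4.44) after light (2.79 ± 0.36, adjusted p = 1.71e-06). Its receptor Il1r1 changed by 1.44 ± 0.16, and Tnfrsf12a, the receptor of TWEAK, by 2.27 ± 0.29. Tnf itself ranged over 0 to 1.44 CPM in control and 0.0486 to 1.92 CPM (median 1.26) after light and did not pass (1.15 ± 1.28, adjusted p = 0.597).

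Growth factors and their feedback inhibitors were called in part, with 9 of 38 up and 2 down, shares of the list to be read against 11.9% and 10.6% of all genes. Fgf2, a factor that protects photoreceptors, measured 0.953, 1.53, 0.934, 1.01 and 1.48 CPM in control and 4.798 to 6.66 CPM (median 5.15) after light, and Gdf15, a stress cytokine, changed by 2.37 ± 0.26. The feedback inhibitors of growth factor signalling Spry2 and Spry4 changed by 1.03 ± 0.15 and 0.55 ± 0.11, and the phosphatase Dusp5 by 1.13 ± 0.16, while Dusp4 fell (-0.66 ± 0.12). Of 8 genes of the endothelin system 4 rose. Edn2, endothelin 2, measured 0.138, 0.0915, 0.173, 0.0537 and 0.3097 CPM in control and 1.21 to 2.53 CPM (median 2.22) after light, Ecel1, a related protease of injured neurons, changed by 2.02 ± 0.28, and the receptor Ednrb by 0.58 ± 0.15.

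The integrated stress response, in which ATF4 raises genes of amino acid supply, was called in many members: 19 of 34 rose and 2 fell (median 0.46). TGATGNAA, the core of the sites that ATF4 and its C/EBP partners are known to bind, was searched on both strands of the promoters. It occurred in 7 of the 29 promoters matched for this list (24.1%; 85.3% of its tested members matched) and in 3.27% of all 27457 promoters. Because the list is one of genes tied to ATF4, a high share is built into it and says nothing about the response to light. Not all members that hold the motif were called. Stretches of 3 genes that rose and hold it, chosen after the values were seen, have it, or its reverse complement, in capitals. Chac1, which degrades glutathione, lies at chr3:126795921-126796020 (plus strand), Nupr1, a stress-induced nuclear protein, at chr1:190645902-190646001 (minus strand), and Aars, the alanyl-tRNA synthetase, at chr19:55908322-55908421 (plus strand).
Chac1: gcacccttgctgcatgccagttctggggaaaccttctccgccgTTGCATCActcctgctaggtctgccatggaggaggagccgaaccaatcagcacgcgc
Nupr1: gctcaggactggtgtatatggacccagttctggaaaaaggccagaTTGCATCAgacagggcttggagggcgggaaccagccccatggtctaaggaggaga
Aars: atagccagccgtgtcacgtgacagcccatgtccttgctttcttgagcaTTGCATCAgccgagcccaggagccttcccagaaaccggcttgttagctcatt

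Atf3, a stress-induced transcription factor, measured 9.74, 16.97, 30.8, 32.6 and 25.1 CPM in control and 81.9 to 187 CPM (median 136) after light, and Asns, asparagine synthetase, 41.1, 41.1, 40.97, 43.3 and 43.9 and 116 to 169 CPM (median 138). Neither overlapped between groups. Chac1 measured 13.1, 14.7, 19.6, 13.97 and 17.1 CPM in control and 21.8 to 30.8 CPM (median 27.8) after light (0.79 ± 0.16, adjusted p = 0.000646). Aars and Nars, the asparaginyl-tRNA synthetase, changed by 0.63 ± 0.11 and 0.43 ± 0.059, Sesn2, a stress-induced brake on mTOR, by 0.85 ± 0.11, and Slc7a11, the cystine importer, by 0.91 ± 0.19. Nupr1 changed by 1.10 ± 0.34 and no longer passed without control 1 or 4 or light damage 3 (adjusted p between 0.0506 and 0.0776). Psat1, an enzyme of serine synthesis and also an ATF4 target, fell (-0.79 ± 0.15), and Ddit3, the CHOP factor, did not pass (0.20 ± 0.10, adjusted p = 0.157).

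Of 23 genes of endoplasmic reticulum folding 7 rose and 2 fell (1 without control 1; 11 rose with limma-voom), with small changes: the chaperone Hspa5 changed by 0.45 ± 0.12, Dnajb9 by 0.31 ± 0.062 and Xbp1 by 0.37 ± 0.10. Of 22 heat shock genes 7 rose and 2 fell (1 without control 1 or 4). The rises lay between 0.26 and 0.61, with Hspa1l, a relative of Hspa1a, the highest (0.61 ± 0.16; adjusted p = 0.0514 with limma-voom), and included mitochondrial Hspa9 (0.38 ± 0.05) and cytosolic Hspa4 (0.26 ± 0.054), and the stress-induced Hspa1a fell (-0.70 ± 0.19). Hsp90aa1, a cytosolic chaperone, was at 0 in all control libraries and not called. It stood at 2.03 CPM in light damage 2 and at 0 to 0.00754 CPM in the other light damage libraries, though the DESeq2 Wald test called it. Whether its reads were lost in mapping or counting was not tested, so the level of 0 does not show that the gene was silent. Of 20 targets of NRF2, the factor that answers oxidants, 6 rose, but 3 without control 1 or control 4. Srxn1, sulfiredoxin, was among them (0.97 ± 0.15). Of 20 antioxidant enzymes 1 rose and 2 fell (none without control 1, control 4, light damage 4 or light damage 7, and 1 fell without control 2 or light damage 1, 3 or 6). Sod2, the mitochondrial superoxide dismutase, measured 119, 119, 119, 119 and 124 CPM in control and 229 to 385 CPM (median 329) after light, without overlap.

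Metal-binding and heme genes rose in part. Of 11 genes of metallothioneins and zinc transport 6 rose, all without overlap, and 1 fell (none without control 1, 4 or 6 or light damage 2, 3, 4, 6 or 7). Of all genes 11.9% rose, and in 6.47% all light damage libraries lay above all control libraries. Mt2A measured 15.8, 9.25, 12.7, 11.6 and 12.1 CPM in control and 95.5 to 213 CPM (median 160.3) after light, and Mt1 changed by 1.20 ± 0.23; both are small genes of close sequence that can share reads, so their separate values are uncertain. Slc39a1, a zinc importer, changed by 0.66 ± 0.10. Of 19 genes of heme and iron 6 rose and 2 fell (none without control 1, and 1 without control 2, 4 or 5 or light damage 3, 4, 5, 6 or 7). Hmox1, heme oxygenase, which breaks heme down, measured 7.16, 8.51, 9.85, 10.9 and 11.6 CPM in control and 71.7 to 243 CPM (median 147) after light, without overlap.

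Cell death genes showed 10 rises and 3 falls among 29 tested genes of apoptosis and growth arrest. Pmaip1, a BH3-only protein that favours cell death, changed by 1.07 ± 0.11, Bax by 0.41 ± 0.094, and the growth arrest genes Gadd45b and Gadd45g by 1.47 ± 0.20 and 2.39 ± 0.18. Casp9, the initiator caspase, fell (-0.25 ± 0.055; not called with scaling by library size alone), as did Aifm1, the mitochondrial apoptosis factor (-0.35 ± 0.085), and Sesn1 (-0.48 ± 0.062). Of 12 genes of inflammasomes and necroptosis 5 rose (3 without control 1). Nlrp1a, an inflammasome sensor, measured 1.63, 1.78, 2.26, 2.105 and 1.74 CPM in control and 8.42 to 13.3 CPM (median 9.99) after light (2.47 ± 0.38), Nlrp3 changed by 1.21 ± 0.23 and Casp4, which senses bacterial lipid in the cytosol, by 0.80 ± 0.14. Casp1 did not pass (0.11 ± 0.20, adjusted p = 0.773).

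Part of the genes of glucose use fell. Photoreceptors ferment much of their glucose to lactate, and of 31 genes of glycolysis, lactate and pyruvate 12 fell and 2 rose. Hk2, the hexokinase of photoreceptors, measured 666, 446, 408.99, 510.05 and 403 CPM in control and 127 to 209 CPM (median 137) after light, without overlap. Pfkfb2, which sets the pace of phosphofructokinase, changed by -1.07 ± 0.13, Pkm, pyruvate kinase, by -0.81 ± 0.13 and Ldha, lactate dehydrogenase, by -0.50 ± 0.13. The lactate transporter Slc16a1 measured 384, 299, 311, 362 and 246 CPM in control and 138 to 208 CPM (median 169) after light. The 2 members that rose were Pdk4, which shuts pyruvate out of the mitochondria (1.65 ± 0.43), and Pfkfb3 (0.56 ± 0.10).

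Of 35 nuclear genes of oxidative phosphorylation 13 fell, by small amounts, and none without overlap. This count fell to 2 without control 1, 3 without control 4, 8, 7 and 6 without light damage 3, 6 and 7, and rose to 20 without control 6. Ndufa4, a subunit of cytochrome oxidase, changed by -0.58 ± 0.11. Of 12 genes of the mitochondrial genome 3 fell (1 without control 1 and none without control 4).

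Sterol genes fell in 18 of 28 tested cases and rose in 0, with a median of -0.37. Hmgcs1, an early enzyme of cholesterol synthesis, measured 289, 278, 335, 269 and 367 CPM in control and 193 to 252 CPM (median 220.4) after light (-0.48 ± 0.11, adjusted p = 0.0022). Mvd, Lss and Sqle, later enzymes of the path, changed by -0.50 ± 0.086, -0.66 ± 0.16 and -0.39 ± 0.10. Abcg1, which exports sterol from cells, measured 166, 156, 143, 169 and 153 CPM in control and 100.2 to 116 CPM (median 112) after light (-0.52 ± 0.074, adjusted p = 6.55e-06). In Hmgcs1 and Abcg1 all light damage libraries lay below all control libraries.

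Matrix and wound genes rose in 10 of 29 cases. Timp1, an inhibitor of matrix proteases, measured 13.4, 11.2, 15.5, 11.4 and 13.3 CPM in control and 48.7 to 124 CPM (median 84.98) after light (2.73 ± 0.23, adjusted p = 1.48e-09). Adamts4, a protease of proteoglycans, changed by 2.54 ± 0.22 and Mmp3, stromelysin, by 2.08 ± 0.46, while Timp4 fell (-1.09 ± 0.33). Ptx3, a soluble pattern recognition protein, measured 0.907, 0.665, 0.661, 0.645 and 0.584 CPM in control and 2.83 to 45.5 CPM (median 23.98) after light. Of 25 genes of endothelium and pericytes 5 rose and 1 fell. The 2 receptors of vascular endothelial growth factor parted: Flt1 measured 48.99, 55.98, 59.2, 52.4 and 46.5 CPM in control and 84.7 to 137 CPM (median 97.2) after light (0.95 ± 0.13), while Kdr, which neurons of the rodent retina also express, measured 431, 396, 339, 337 and 289 and 178 to 272 CPM (median 187) (-0.81 ± 0.15). In neither did the groups overlap.

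Of 22 clock genes 3 rose and 2 fell (1 without control 1, control 5 or light damage 4), shares close to those of all genes. Nr1d1, a repressor of the clock, changed by 0.69 ± 0.11 and Bhlhe40 by 0.64 ± 0.088, while Per2 and Dbp did not pass (adjusted p = 0.439 and 0.605). Of 22 lysosomal genes 3 rose, a share close to the 11.9% of all genes, with Ctsz, a cathepsin, the highest (1.00 ± 0.16). Of 30 cell cycle genes 2 rose and 6 fell, against 11.9% and 10.6% of all genes. Without control 1 none rose and 16 fell, without control 6 3 fell, without control 2 or light damage 3 none rose, and without control 4 or 5 or light damage 4, 5 or 7 1 rose. Markers of tissues next to the retina are to be read against 11.9% higher and 10.6% lower of all genes. Lens, skeletal muscle, oligodendrocyte and Y-linked lists had no called member, the pigment epithelium list 1 higher and 3 lower of 13 (1 lower without control 1 and 5 without control 2 or 6), and the list of iris, ciliary body and smooth muscle 2 lower of 11 (1 without control 5). All 11 members of that list had a log2 change below 0, and its mean level lay between -0.68 and -0.18 relative to the control mean in light damage libraries and between -0.56 and 0.38 in control libraries. The pigment epithelium list took 0.331% to 0.492% of the counts in control and 0.311% to 0.49% in light damage libraries, and the part of that tissue in the fall of Rpe65 was not tested. Actg2, a smooth muscle actin, stood at 10.97 to 73.2 CPM in control and 4.25 to 10.2 CPM (median 7.11) after light (-2.18 ± 0.40). Of 4 genes of red blood cells 1 rose, Slc4a1, the anion exchanger, which measured 0.172, 0.183, 0.144, 0.224 and 0.262 CPM in control and 0.292 to 1.76 CPM (median 0.502) after light (1.97 ± 0.52). The mean level of these 4 genes stood 2.10, 1.79 and 1.65 above the control mean on the log2 scale in light damage 1, 4 and 7 and at -0.71 to 0.31 in the other light damage libraries, and the part of blood in the leukocyte values was not tested.

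Several genes outside the lists ranked among the largest or surest changes. Slc25a30, a mitochondrial carrier, measured 10.1, 10.9, 12.05, 13.1 and 14.5 CPM in control and 58.8 to 83.2 CPM (median 63.6) after light (2.45 ± 0.14, adjusted p = 6.7e-13). Klf11, a zinc-finger factor, measured 16.7, 15.7, 16.2, 16.1 and 15.7 CPM in control and 43.6 to 61.01 CPM (median 49.5) after light (1.67 ± 0.10, adjusted p = 5.74e-12). Both had tight control values and no overlap. Fcnb, a ficolin of myeloid cells, changed by 5.58 ± 0.71, Slc13a5, the citrate importer, by 3.97 ± 0.36, Il23r, a receptor chain of interleukin-23, by 3.46 ± 0.39, Sp5, a target of Wnt signalling, by 3.45 ± 0.36 and Kcng4, a potassium channel subunit, by 2.52 ± 0.18. Plekha8, a glycolipid transfer protein, changed by 2.21 ± 0.17 and Dennd4a, a regulator of Rab proteins, by 1.82 ± 0.13. Downward, Sema3f, a secreted guidance cue, measured 297, 271, 312, 291 and 258 CPM in control and 82.6 to 100.4 CPM (median 91.9) after light (-1.65 ± 0.12, adjusted p = 9.02e-11). Susd3 changed by -2.25 ± 0.26, Tmem116 by -2.44 ± 0.29, Miox, which oxidises inositol, by -2.22 ± 0.28, Fam57b, a ceramide synthase, by -2.05 ± 0.27 and Rgs22, a regulator of G-protein signalling, by -1.98 ± 0.21. In Sema3f, Susd3, Tmem116, Miox, Fam57b and Rgs22 the groups lay apart.

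A few genes separated the groups in an all-or-nothing way. Ndufa10l1, named as a relative of the complex I subunit Ndufa10 and able to share its reads, measured 10.7, 10.4, 9.79, 12.2 and 9.08 CPM in control and 0.3801 to 1.12 CPM (median 0.603) after light, but ranged over 0.414 to 10.9 CPM without and 0.309 to 17.3 CPM with light after vehicle, and over 0.502 to 12.8 and 0.348 to 19.8 CPM after nanoceria. Rn50_15_0408.6 measured 0.241, 0.283, 0.23002, 0.251 and 0.286 CPM in control and 5.58 to 20.5 CPM (median 10.1) after light, against 0.364 to 21.3 CPM in vehicle libraries. Plscr5 was at 0 in all 5 control libraries and at 0.0891 to 0.195 CPM (median 0.124) after light, close to the floor, and at 0.0312 to 0.154 CPM in vehicle libraries without light. In Ndufa10l1 the injected groups held high and low libraries in both light states.

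The light damage libraries did not respond to the same degree. When each list was reduced to the mean log2 CPM of its tested members, 13 of 54 lists had every light damage library above every control library, and light damage 2 was the lowest light damage library in all 13. Rod phototransduction lay below the control mean by 0.76 to 1.61 on the log2 scale in the light damage libraries, with light damage 2 and the shallow light damage 1 (0.80 below) nearest to control. The list of photoreceptor transcription factors lay 0.35 below the control mean in light damage 2 and up to 1.05 below it in the others. In light damage 2 the CC chemokines stood 1.32 above the control mean, against a median of 2.13 and a highest value of 2.48 (light damage 6). Activated phagocytes ranged from 0.33 in light damage 2 to 1.21. The control libraries spread over -0.46 to 0.29 for CC chemokines and over -0.35 to 0.41 for the rod list, with control 1 highest in rod level. Leaving light damage 2 out gave 2154 higher and 1926 lower genes, and leaving each library out in turn gave 3439 (without control 1) to 4167 (without control 6) called genes against 4074.

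**Figure D4:**
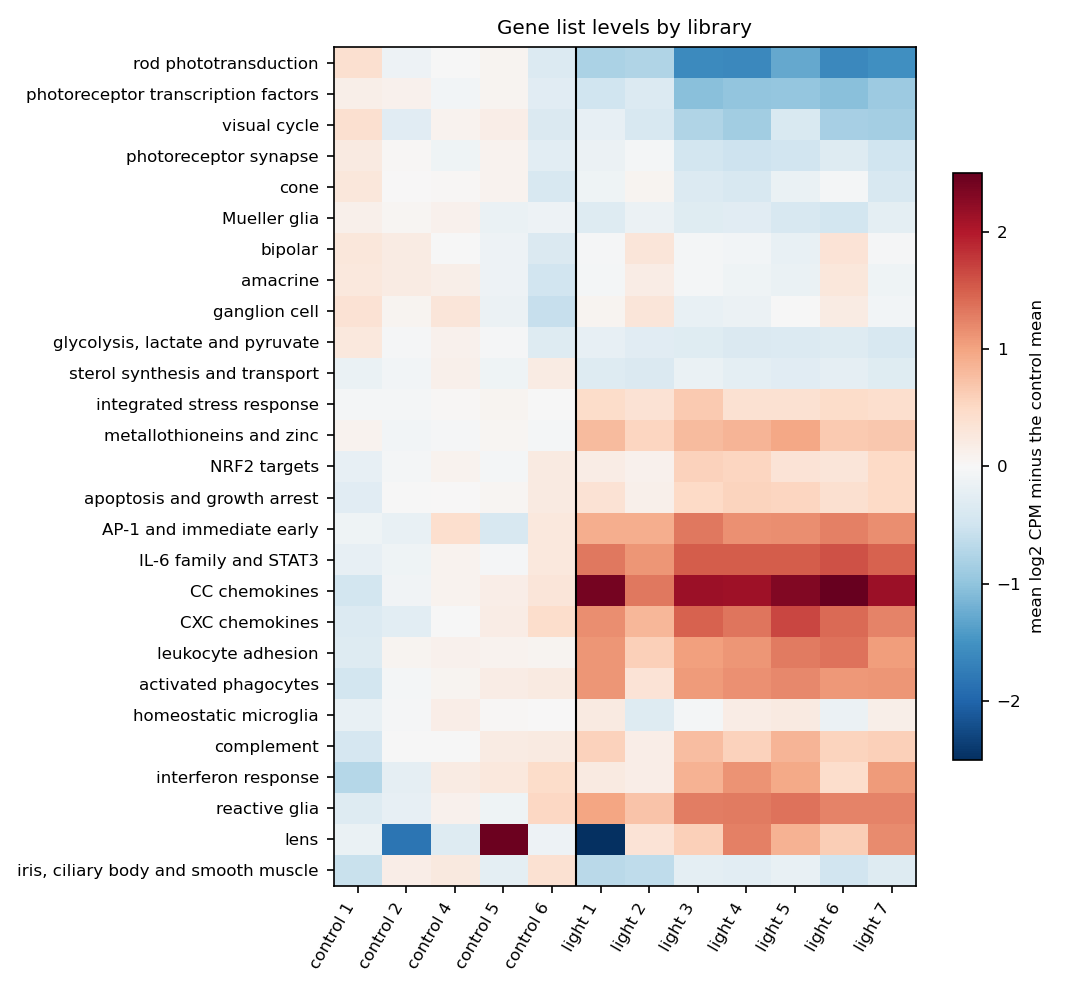
Mean log2 CPM of the tested members of 27 gene lists in each of 5 control and 7 light damage libraries, minus the mean of the control libraries, in colour (blue below, red above; the scale ends at 2.5 either way). Light damage 2 is the palest light damage column in the chemokine, phagocyte and glial rows, the lens row holds both colours in both groups, and the row of iris, ciliary body and smooth muscle lies below 0 in every light damage library and in control 1 and 5.

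Eyes that were injected and exposed to the same light show which responses also occur with an injection. After vehicle 9.67% of genes were higher and 7.17% lower with light, and after nanoceria 8.15% and 5.78%. Rod phototransduction had 17 and 17 of 20 members lower there, the interleukin-6 family and STAT3 list 18 and 16 of 28 higher, CC chemokines 10 and 6 of 19, activated phagocytes 11 and 6 of 29, complement 6 and 1 of 22, and the stress response list 21 and 22 of 34. Sterol genes were lower in 9 and 1 of 28. These counts were not tested against those without injection, and the groups differ in size.

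The difference between responses was tested gene by gene. The response without injection differed from that after vehicle in 8 genes (0.0442%; 4 larger, 0.0221%, and 4 smaller, 0.0221%) and from that after nanoceria in 74 (0.409%; 60 larger, 0.332%, and 14 smaller, 0.0774%). At an unadjusted p under 0.05 the counts were 1059 and 1787. Both tests share the uninjected libraries. The count of 74 fell to 14 without control 2 and 17 without light damage 5 and rose to 158 without light damage 2; it lay between 40 and 47 without control 1, 4 or 6 or light damage 3, 4, 6 or 7. The count of 8 was 5 without control 5 or light damage 6.

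Ccl3 and Cxcl11 were in both sets. Ccl3 rose to 6.44 to 14.5 CPM without injection, while vehicle libraries stood at 0.291 to 0.748 CPM without and 3.1995 to 6.96 CPM with light, and nanoceria libraries at 0.379 to 0.556 and 2.47 to 7.19. Its response without injection was larger by 2.35 ± 0.46 than after vehicle (adjusted p = 0.0438) and by 2.62 ± 0.47 than after nanoceria (adjusted p = 0.0137). The difference of Ccl3 from vehicle passed in 9 of 21 alternatives, and that from nanoceria in all 21. Among the alternatives in which the difference from vehicle failed were a block for replicate number, the near-identical pair summed and limma-voom. It also failed without control 1, 2 or 5 or light damage 1, 4, 5, 6 or 7 (adjusted p up to 0.114). Cxcl11, an interferon-induced attractant, measured 0.138, 0.0915, 0.115, 0.0716 and 0.191 CPM in control and 2.03 to 3.57 CPM (median 2.71) after light, 0.195 to 0.561 and 1.21 to 2.56 in vehicle libraries, and 0.507 to 1.09 and 0.704 to 2.82 in nanoceria libraries without and with light. Its difference from vehicle passed in 16 of 21 alternatives, and failed among others without control 2, 4 or 5 or light damage 6 (up to 0.103). Its difference from nanoceria passed in all 21.

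Among the 60, the response was larger without injection for Ccl2 (2.62 ± 0.56), Ccl4 (2.35 ± 0.48), Icam1 (1.20 ± 0.25), Itgal, an integrin of leukocytes (1.76 ± 0.36), Ptprc (1.54 ± 0.35), Siglech, a marker of microglia (3.65 ± 0.81), Fcnb (4.55 ± 0.89) and Nlrp1a (2.96 ± 0.53), with adjusted p from 0.0143 to 0.0476. Of 21 alternatives Nlrp1a kept this difference in 21, Icam1, Itgal and Fcnb in 18, Ccl4 in 16, Ccl2 in 14, Siglech in 6 and Ptprc in 5. Without control 2, and with a block for replicate number, Nlrp1a alone of these 8 kept it. Without light damage 5 Nlrp1a and Fcnb did. Nlrp1a stood at 6.16 to 8.65 CPM in nanoceria libraries without light and 1.89 to 8.71 with it. A higher level in nanoceria eyes without light and a lower level with light both enlarge such a difference. Which of these held for the others of the 8 was not tested. Chi3l1, a chitinase-like protein of glia and macrophages, measured 31.9, 17.8, 33.8, 32.1 and 33.9 CPM in control and 159 to 295 CPM (median 203) after light, and 153 to 299.6 and 177 to 301 CPM in nanoceria libraries without and with light, so that nanoceria eyes without light lay in the same range as those with it. Against vehicle, Etv4, a target of growth factor signalling, was set apart by the unexposed eyes: it measured 10.3, 12.0003, 10.7, 10.6 and 15.7 CPM in control and 5.302 to 6.15 in vehicle libraries, but 8.27 to 11.5 CPM (median 10.7) and 9.999 to 12.6 CPM with light. Cntnap5b, an adhesion protein of neurons, measured 5.76, 6.31, 2.1996, 2.88 and 2.72 CPM in control and 6.63 to 14.5 in vehicle libraries, and 5.53 to 9.003 CPM (median 7.03) and 1.75 to 3.69 CPM with light, so the uninjected and vehicle libraries lay apart in both light states, in opposite order.

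**Figure D5:**
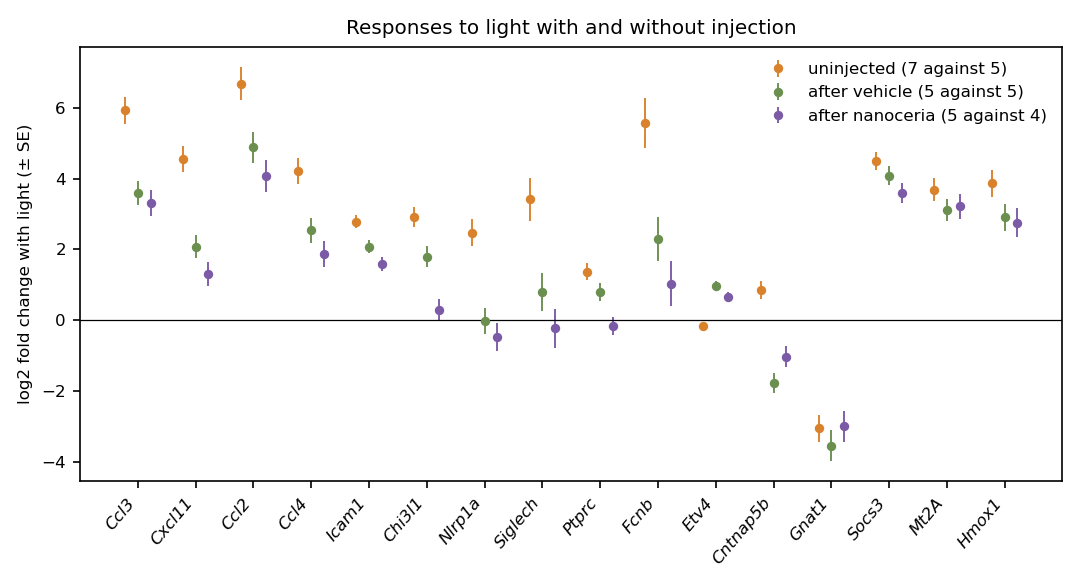
Log2 fold change with light, with bars of 1 SE, of 16 genes without injection (7 against 5 libraries), after vehicle (5 against 5) and after nanoceria (5 against 4). Ccl3 and Cxcl11 lie highest without injection, Chi3l1 and Nlrp1a are near 0 after nanoceria, Etv4 is near 0 without injection and above 0 in injected eyes, Cntnap5b is above 0 without injection and below 0 in injected eyes, and Gnat1, Socs3, Mt2A and Hmox1 keep 1 direction in all 3 settings.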

How the data were processed

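The deposited table holds raw counts of reads per gene; all values are whole numbers and library totals differ, so no normalisation is apparent. Per the submitters' processing notes, Trimmomatic 0.39, STAR 2.7.9a, featureCounts (Subread 2.0.1), DESeq2 1.30.1, R 4.0 and the rn6 build were used. The sources used here do not give strand setting or annotation release, so genes that overlap or are near-identical can share reads. Of 42 labelled samples 31 had counts and 11 were not analysed here. The filter filterByExpr (minimum count 10, minimum total 15) kept 18094 of 32623 genes. Tests were edgeR 4.0.16 quasi-likelihood fits in R 4.3.3 (robust, TMM scaling, all 31 libraries, 1 coefficient per group), adjusted by the Benjamini-Hochberg method over all tested genes. CPM were computed from these counts with TMM-scaled library sizes. Fits were tested on simulated data.

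Alternatives were other scalings, no filter, DESeq2 1.42.0, limma-voom (limma 3.58.1), the near-identical pair summed, a replicate block, a term for Y-linked transcripts, the 12 libraries alone and leaving out each library in turn.

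The groups, the gene lists and the tests were chosen with earlier results of these data known. Named genes were selected by a rule: the 20 highest, 20 lowest and 20 surest called changes above a minimum level, up to 4 called members at either end of each list with its 2 surest, a core list, and the 5 surest genes of each difference between responses. Of 248 genes the text names, 52 lie outside this rule and were chosen after their values were seen. Some genes that the rule selects are not reported here.

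Promoter letters come from a RefSeq table of build GRCr8, which held an entry for 12698 (70.2%) of the tested genes. Shares of a motif within a list are given only where at least 80% of its members matched.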

Additional observations from a re-analysis of the deposited data

Results flagged for a closer look

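Per-library levels were screened in each group for a library far from the others of its group. Chance alone marks about 1 in 20 groups, and 13 of 182 groups were marked. Among the control libraries, control 6 stood high for Socs3 (2.47 CPM, next 1.79), Cxcl10 (4.74 CPM, next 1.38) and Sod2 (123.6 CPM, next 119), control 1 high for Ptx3 (0.907 CPM, next 0.665), control 4 high for Camp (0.0575 CPM, next 0.0166), and control 2 low for Chi3l1 (17.8 CPM, next 31.9). Among the light damage libraries, light damage 6 stood high for Gap43 (68.8 CPM, next 50.5), Flt1 (137 CPM, next 105.1) and Il11 (5.55 CPM, next 2.64), light damage 3 high for Pdk4 (30.1 CPM, next 16.7), light damage 2 high for Hsp90aa1 (2.03 CPM, next 0.00754), and light damage 5 low for Etv4 (8.27 CPM, next 10.3). Light damage 1 held AABR07000398.1 at 144262 CPM, with the next library at 3527 CPM. The call of this transcript ended with the DESeq2 Wald test, with limma-voom and with the 12 libraries alone (adjusted p = 0.106, 0.144 and 0.0669), and without light damage 1, where its log2 change was 0.64 in place of 3.76.

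A further mark was a response to light that differed, by the interaction test of edgeR, between eyes without and with an injection. Against vehicle the log2 differences (uninjected minus vehicle) were 2.64 for Cntnap5b, -1.14 for Etv4, 9.08 for Plscr5, -0.60 for Spice1, a gene of the centriole, 2.48 for Cxcl11 and 2.35 for Ccl3. Against nanoceria they were 3.24 for Cxcl11, 2.63 for Chi3l1, 1.38 for Gpr183, an oxysterol receptor of immune cells, 9.29 for Plscr5, 1.31 for Tspan4, 2.62 for Ccl3, 2.96 for Nlrp1a, 4.55 for Fcnb, 1.76 for Itgal, 1.20 for Icam1, 2.35 for Ccl4, 1.09 for Ednra, 1.89 for Cntnap5b, 2.62 for Ccl2, 3.65 for Siglech, 1.54 for Ptprc, 1.65 for Bcl2a1, -0.83 for Etv4 and 1.10 for Cp. Plscr5 was at 0 in all 5 control libraries, so its fitted differences depend on the prior count and bound nothing. Ednra, an endothelin receptor, and Bcl2a1, a survival protein of leukocytes, are named here only for these differences.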

How the results depend on the processing

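The count of lower genes was 1927, and 1100 with library size alone in place of TMM scaling. The other alternatives left the counts of higher and lower genes within 1.5 times, among them 2140 and 1892 with DESeq2 size factors, 2038 and 1767 without a filter, 2357 and 2141 with the DESeq2 Wald test, 2837 and 2797 with limma-voom, 2067 and 1860 with the Y-linked term, and 1957 and 1710 with the 12 libraries alone. Leaving out each library gave 1851 to 2279 higher and 1550 to 1926 lower genes. Summing the pair and leaving out light damage 1 was an alternative chosen after seeing the data. The difference from vehicle (8 genes) was 40 with the Wald test, 118 with limma-voom, 4 with the pair summed and light damage 1 left out, and 5 to 9 without single libraries. The difference from nanoceria (74) was 275 with the Wald test, 43 with the pair summed, 46 with the Y-linked term, 32 with the pair summed and light damage 1 left out, and 14 to 158 without single libraries. For these counts the cause was not tested.

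Replicate numbers were not taken as pairs: no label ties them to an animal, litter or day, though column names count libraries onward within a number. Same-numbered control and light damage libraries correlated at 0.25, 0.22, -0.028, 0.071 and -0.031 for numbers 1, 2, 4, 5 and 6, and 3 of 5 control libraries matched their own number best. With the replicate block 1973 genes were higher and 1755 lower, and the differences from vehicle and nanoceria held 5 and 16 genes; the calls of C3, Nupr1, Cntnap5b and AABR07000398.1 against control were not made (adjusted p = 0.0607, 0.0579, 0.0638 and 0.0972).

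For the 248 genes named, 5454 values under alternatives were computed: 5406 kept direction and call, 33 lost the call, 13 gained one and 2 changed sign, both of Gad1, which was not called (0.0053 with library size alone and 0.056 without control 1, against -0.06; -0.15 to 0.056 without single libraries). Light damage 1 has the least depth, so low genes are least precise there, and light damage 4 and 7 may not be independent.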
